A study of Homo sapiens with 6 samples.

Results

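Replication-dependent histone genes encode the linker histone H1 and the core histones H2A, H2B, H3 and H4 that package newly made DNA. They were chosen by symbol: every gene of the count table named H1-1 to H1-6, H2AC, H2BC, H3C or H4C with a number, or H4-16, that had a largest count over the 6 libraries above 12. In all, 54 symbols matched and 49 passed the count limit, out of 23952 genes tested. Of the 49 genes, 4 encode H1, 13 H2A, 11 H2B, 9 H3 and 12 H4. On hg38, 37 lay on chromosome 6, in a first stretch (chr6:26020451-26285638) and a second stretch (chr6:27125897-27893891), 11 lay on chromosome 1 (chr1:149782689-149887965) and 1, H4-16, on chromosome 12. The 5 genes under the limit were H1-1, H2AC8, H2BC3, H2BC9 and H2BC14. A further 15 gene symbols of the GENCODE v44 annotation match the names but have no row in the table and were not analysed here. They include H1-5 and the H3 genes H3C3, H3C4, H3C8 and H3C11, so the classes below are not complete.

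The cells were HEK 293T, an established line of human embryonic kidney origin that carries the SV40 large T antigen. The study compared 3 libraries of wild-type cells (WT) with 3 libraries of a TENT3A/B knockout (ΔTUT4/7), with no treatment in either group. TENT3A and TENT3B are other names of TUT4 and TUT7, enzymes that extend RNA 3′ ends with uridines. The libraries were made from total RNA depleted of ribosomal RNA, and the labels call the 3 of each group biological replicates. One cell line stood for each genotype, so the knockout and any other difference between the lines cannot be told apart. Because these are bulk libraries, a change in the share of cells that express a gene and a change in RNA per cell cannot be told apart either.

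Most mRNAs end in a poly(A) tail, but replication-dependent histone mRNAs end just after a short stem-loop. The stem-loop is bound by SLBP, which guides the cut at the 3′ end and translation, and these mRNAs accumulate in S phase and are degraded when DNA synthesis stops. That decay is known to begin with the addition of uridines next to the stem-loop, and the comparison of ΔTUT4/7 with WT bears on how much of each histone mRNA is present when the uridylyltransferases are targeted.

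The stem-loop is shown first, since it is the feature that sets these mRNAs apart. A search of the last 100 bases of each gene's canonical GENCODE v44 transcript for the 16-base histone 3′ stem-loop consensus found it in 48 of the 49 genes. Among 20046 canonical coding transcripts the same search matched 73, or 0.364%, and 68 of these carried a name of the kind used here. The exception was H2BC21, whose canonical transcript of 2224 bases runs on past a match that lies 1729 bases before its end. In the other 48 the stem-loop ended 1 to 11 bases before the annotated end of the transcript. The following are 26-base stretches of the hg38 genome on the gene's strand, with the 16-base stem-loop in capitals. They hold the genes whose level fell (H1-3, H3C7, H4C12 and H2AC15), the gene raised 2-fold or more (H2AC16), the gene outside the large clusters (H4-16), and 1 gene for each other stem-loop sequence.

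H1-3 (chr6:26234212-26234237, minus strand): taaacGGCTCTTTTCAGAGCCaccca

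H3C7 (chr6:26250140-26250165, minus strand): ccaaaGGCTCTTTTCAGAGCCaccaa

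H2AC16 (chr6:27865773-27865798, plus strand): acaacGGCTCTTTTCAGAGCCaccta

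H2BC4 (chr6:26123467-26123492, minus strand): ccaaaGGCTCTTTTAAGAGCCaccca

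H4-16 (chr12:14770719-14770744, minus strand): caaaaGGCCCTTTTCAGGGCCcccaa

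H4C12 (chr6:27831173-27831198, minus strand): caaaaGGCCCTTTTTAGGGCCcccac

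H2AC11 (chr6:27133510-27133535, plus strand): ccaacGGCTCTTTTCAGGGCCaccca

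H2AC15 (chr6:27837880-27837905, minus strand): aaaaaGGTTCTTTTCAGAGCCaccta

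H2AC20 (chr1:149887386-149887411, plus strand): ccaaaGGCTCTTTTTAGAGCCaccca

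H3C6 (chr6:26225591-26225616, plus strand): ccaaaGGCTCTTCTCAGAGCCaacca

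The 48 stem-loops fell into 8 sequences, and only the H4 class shared none of its forms with another class. The form of H1-3, H3C7 and H2AC16 was shared by 25 genes of the H1, H2A, H2B and H3 classes. All 12 H4 genes carried 1 of 2 forms with a longer run of G and C in the stem, that of H4-16 in 8 genes and that of H4C12 in 4. The form of H2BC4, with A as the last base of the loop, was found in 7 genes, 5 of them H2B. In 46 genes all 6 stem positions could pair as Watson-Crick pairs, and in H2AC11 and H2AC15 5 of 6 could. The 25 genes with the commonest form had changes between ΔTUT4/7 and WT with a median of 0.40 on the log2 scale, and this same form was found in the most strongly lowered gene, H3C7, and in the most strongly raised, H2AC16. The medians were 0.39 for the 8 genes with the form of H4-16, 0.39 for the 7 with that of H2BC4 and 0.12 for the 4 with that of H4C12. These medians describe the genes, and no difference between the forms was tested.

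Many H2A and H2B genes stand head to head around a shared promoter, and 8 such pairs were found with start sites 194 to 251 bases apart. RefSeq promoter sequence (GRCh38.p14) was matched for 45 of the 49 genes, and the 250 bases before the start were searched. The stretch before H2BC11, which is also that of H2AC11, is printed from the H2BC11 strand (chr6:27132796-27133045, minus strand) with matches in capitals.

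H2BC11: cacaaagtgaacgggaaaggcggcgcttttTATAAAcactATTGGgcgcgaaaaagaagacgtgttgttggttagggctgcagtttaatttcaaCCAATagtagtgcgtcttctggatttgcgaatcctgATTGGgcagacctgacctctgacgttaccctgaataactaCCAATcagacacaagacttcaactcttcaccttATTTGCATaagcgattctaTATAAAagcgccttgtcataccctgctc

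The capitals mark the octamer ATTTGCAT and the CCAAT box on either strand, so that ATTGG is CCAAT read from the other strand, and TATAAA on the gene's strand alone; the 3 motifs do not overlap here. The octamer stood before 8 of 12 H2A and 8 of 11 H2B genes and before 0 of 4 H1, 0 of 8 H3 and 0 of 10 H4 genes, against 2.03% of all 27305 RefSeq promoters. The CCAAT box stood before all 35 matched H1, H2A, H2B and H3 genes but before 1 of 10 H4 genes, against 37.0% of all promoters. TATAAA was present before 2 of 4 H1, 9 of 12 H2A, 6 of 11 H2B, 7 of 8 H3 and 5 of 10 H4 genes, against 8.38% of all. The median change was 0.31 in the 16 H2A and H2B genes with an octamer and 0.35 in the 7 without one. Both genes of a head-to-head pair share most of the bases searched, so these genes do not all have separate promoters.

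The libraries held 18757228 to 33148937 counts, of which the histone genes took 0.673% to 0.709% in WT and 0.746% to 0.866% in ΔTUT4/7. Levels are given as counts per 1000000 counts of a library (CPM), with the library size scaled by TMM, and changes as ΔTUT4/7 minus WT on the log2 scale with their standard error. A gene was called at an adjusted p (FDR) under 0.05 in edgeR's quasi-likelihood test over all 23952 genes. The targeted genes did not both follow the label. TUT4 was at 212, 216 and 206 CPM in the WT libraries and at 882, 920 and 917 CPM in the libraries labelled ΔTUT4/7, which is higher in all 3 (2.10 ± 0.04, FDR = 7.9e-19), and TUT7 fell from 60.4, 62.6 and 64.8 to 27.2, 25.2 and 26.5 CPM (-1.25 ± 0.06, FDR = 2.2e-13). A count over the whole gene does not show whether a transcript is functional, so directions below are those of the labelled groups. Of the HEK 293T markers, VIM rose from 496 ± 22.9 to 1250 ± 5.77 CPM (SD, n = 3) and NEFL, KRT8, PAX2 and LHX1 had lower means in ΔTUT4/7. NEFM went from 969 ± 123 CPM in WT to a total of 1 count over the 3 ΔTUT4/7 libraries, and KRT18 from 30.5 ± 1.78 to 44.3 ± 1.42 CPM. PECAM1 and ALB, markers of endothelium and liver, had means of at most 0.174 CPM in either group, and the other 6 markers of other cell types have no row in the table and were not analysed here. The part of these differences between the lines in the histone results was not tested.

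Most of the histone genes were higher in ΔTUT4/7. At the FDR, 31 of 49 rose, 4 fell and 14 were not called, where 28.6% of all tested genes rose and 29% fell. All 3 ΔTUT4/7 libraries lay above all 3 WT libraries for 34 genes and below them for 3, where the shares over all genes were 30.9% and 31.8%. The median change was 0.38, against -0.02 for all genes tested. Histone genes are strongly expressed, and of the genes with a mean count of at least 1000, 51% rose and 28.6% fell with a median change of 0.14. The 38 histone genes above that mean count had 25 that rose, 1 that fell and a median of 0.38. The changes were small: 1 gene rose 2-fold or more and 2 fell 2-fold or more, where 5.9% and 12.4% of all genes did. With library size alone as the scale, the median change of the histone genes was 0.26, 23 rose and the same number, 4, fell. The shares and medians over all genes in this text are those of the TMM scale and are not given for other scales.

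**Figure D1:**
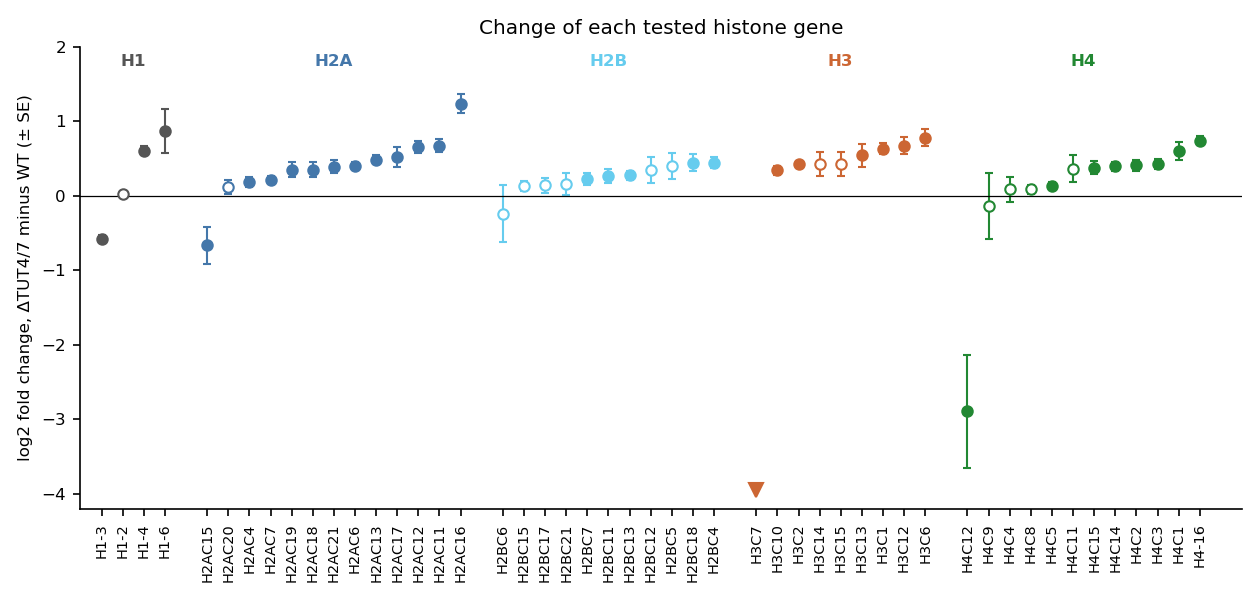
Change of each of the 49 tested histone genes, ΔTUT4/7 minus WT on the log2 scale with its standard error, grouped and coloured by class and sorted within each class. Filled points passed the FDR and open points did not; the triangle marks H3C7, which had 0 counts in ΔTUT4/7 and lies beyond the axis. Most points lie between 0 and 0.8, and H3C7 and H4C12 stand far below.

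Summed over the 49 genes, the level was 6773, 6432 and 6731 CPM in WT and 8152, 9112 and 7747 CPM in ΔTUT4/7, a ratio of means of 1.25. All 4 core classes were higher in every ΔTUT4/7 library than in any WT library. H2A went from 2063 ± 139 to 2679 ± 218 CPM (ratio 1.30), H2B from 1456 ± 164 to 1847 ± 185 (1.27), H3 from 826 ± 70.6 to 1094 ± 87.1 (1.32) and H4 from 1539 ± 129 to 1911 ± 173 (1.24; SD, n = 3 libraries each). The H1 sum, over H1-2, H1-3, H1-4 and H1-6, differed. It leaves out H1-5, which was not analysed, and H1-1, which was under the count limit. It was 768, 745 and 774 CPM in WT and 800.2, 861 and 759 CPM in ΔTUT4/7, so the groups overlapped at a ratio of 1.06, which was 0.977 with library size alone and 1.15 without H1-3. These sums are descriptions and carry no test, because the set was proposed with results of these data known.

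Ratios within a library do not depend on the scale. H1 over H2A was 0.351, 0.357 and 0.405 in WT and 0.301, 0.296 and 0.307 in ΔTUT4/7, with a ΔTUT4/7 mean 0.813 times that of WT. The ratio of H1 to H2B, H3 or H4 was likewise lower in all ΔTUT4/7 than in all WT libraries, with means 0.830, 0.795 and 0.851 times those of WT. Among the core classes the proportions overlapped between the groups: H3 over H4 was 0.541 ± 0.0913 in WT and 0.573 ± 0.0131 in ΔTUT4/7, and H2A over H2B was 1.43 ± 0.224 and 1.45 ± 0.0641.

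**Figure D2:**
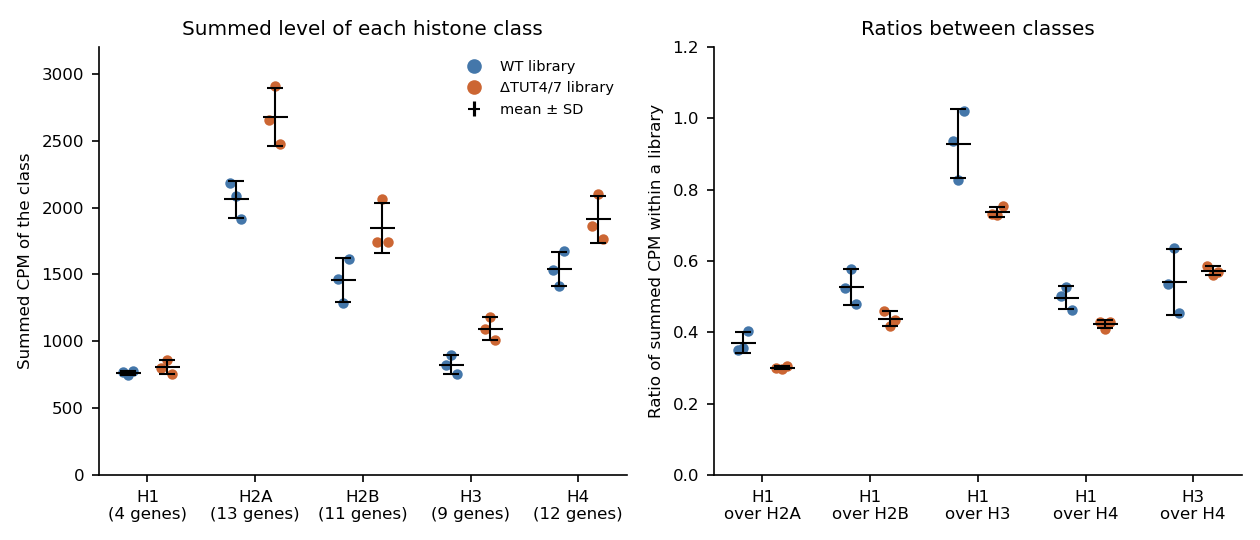
Left, summed CPM of the tested genes of each histone class; right, ratio of summed CPM between classes within each library. Points are libraries (3 WT, 3 ΔTUT4/7) and bars give the mean ± SD; the core class sums separate by group while the H1 sums overlap, and the H1 ratios are lower in every ΔTUT4/7 library.

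Linker histone H1 binds where DNA enters and leaves the nucleosome. H1-2 had the highest level per length of the class, 622 ± 21.6 CPM per kb of canonical transcript in WT, followed by H1-4 at 203 ± 7.24 and H1-3 at 190 ± 0.203. H1-2 was at 453, 439 and 471 CPM in WT and 456, 489 and 444 CPM in ΔTUT4/7. The groups overlapped and no change was called (0.03 ± 0.05, FDR = 0.65); its sign turned with library size alone (-0.09).

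H1-4 rose from 166, 157 and 156 CPM to 241, 268 and 220.1 CPM (0.61 ± 0.06, FDR = 3.1e-07). H1-3 moved the other way, from 147, 148 and 147 CPM in WT to 101, 103 and 93.4 CPM (-0.57 ± 0.05, FDR = 1.2e-09), and stayed lower under each of the 14 alternative settings (-0.69 to -0.53). The WT libraries were nearly equal for this gene and lay well above all ΔTUT4/7 libraries. H1-3 fell from 19.3% to 12.3% of the H1 counts, and H1-4 went from 20.9% to 30.1%. H1-6, the linker histone of the testis, had only 50 counts in WT and 87 in ΔTUT4/7, at 0.764, 0.615 and 0.620 against 1.34, 1.03 and 1.23 CPM (0.87 ± 0.30, FDR = 0.017). That call was lost with DESeq2 and without ΔTUT4/7 replicate 1 (FDR of 0.092 and 0.085).

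H2A pairs with H2B in the dimers that flank the H3-H4 core of the nucleosome, and 11 of 13 genes rose, 1 fell and 1 was not called, with a median change of 0.39. Over all tested genes 28.6% rose, and 51% of those with a mean count of at least 1000 did. The calls for H2AC4, H2AC7, H2AC18 and H2AC19 were lost with library size alone and with upper-quartile scaling. Those for H2AC4, H2AC18 and H2AC19 were lost in further settings too. H2AC18 and H2AC20, both on chromosome 1, had the highest levels per length, at 1196 ± 150 and 773 ± 90.04 CPM per kb in WT. H2AC18 was at 692, 674 and 546 CPM in WT and 822, 865 and 753 CPM in ΔTUT4/7 (0.35 ± 0.10, FDR = 0.028). Its groups did not overlap, but the call was lost with library size alone or upper-quartile scaling and without WT replicate 2, ΔTUT4/7 replicate 1 or ΔTUT4/7 replicate 2 (FDR 0.063 to 0.13). H2AC19 lies near it and shares 99.8% of its 50-base words with H2AC18, so reads could not be told apart by sequence over most of the transcript. The level and rank of each rest partly on how reads were divided between them. Both are among the 11 that rose and are not fully separate measurements. Their sum went from 808 ± 101 to 1031 ± 71.2 CPM. H2AC20 was at 392, 421 and 333 CPM against 408, 449 and 387 CPM and its groups overlapped (0.12 ± 0.10, FDR = 0.34).

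H2AC16 had the highest change of all histone genes that rose. It was at 4.63, 4.42 and 5.80 CPM in WT and 10.95, 12.7 and 11.7 CPM in ΔTUT4/7 (1.24 ± 0.13, FDR = 3.3e-08), and stayed past 2-fold in all alternatives (1.12 to 1.38). This is a low level: 10.3 ± 1.54 CPM per kb in WT. H2AC16 lies at the far end of the long span that the table gives to H2BC15 (chr6:27837760-27865798, plus strand), on the same strand, so their reads overlap in position.

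H2AC15, at the near end of that span and on the other strand, was at 4.02, 3.31 and 5.84 CPM in WT and 2.18, 3.87 and 2.50 CPM in ΔTUT4/7. It was called lower (-0.66 ± 0.25, FDR = 0.035) although the groups overlapped. The call was lost without WT replicate 1, WT replicate 3, ΔTUT4/7 replicate 1 or ΔTUT4/7 replicate 3, and with the replicate block (FDR 0.058 to 0.18). Strand was not stated in the sources for the counting, so reads of H2AC15 and H2BC15 cannot be told apart where they overlap. Of the other H2A genes, H2AC11 (0.68 ± 0.08), H2AC12 (0.66 ± 0.08), H2AC17 (0.53 ± 0.13) and H2AC13 (0.49 ± 0.06) rose most, all in the second stretch of chromosome 6; the call for H2AC17 was lost without WT replicate 3 (FDR = 0.057) and with the replicate block (FDR = 0.13). On chromosome 6 the summed H2A level had a ratio of 1.42 and on chromosome 1 of 1.22, each without overlap between the groups.

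Of the 11 H2B genes 5 rose, 0 fell and 6 were not called, with a median of 0.27. Over all tested genes 28.6% rose, and 51% of those with a mean count of at least 1000 did. The calls for H2BC7 and H2BC11 were lost with library size alone, with upper-quartile scaling and in further settings. Among the 11, H2BC6 alone had a change below 0. In 6 of 11 the ΔTUT4/7 libraries all lay above the WT libraries, where 30.9% of all tested genes did. The highest level per length was that of H2BC18 on chromosome 1, 873 ± 85.5 CPM per kb in WT, followed by H2BC5 at 360.0 ± 71.1. H2BC18 was at 430, 387 and 471 CPM in WT and 547, 666 and 540 CPM in ΔTUT4/7 (0.44 ± 0.11, FDR = 0.020), a call that was lost without WT replicate 1 or with the replicate block (FDR 0.062 to 0.12). The table gives H2BC18 a span far longer than its canonical transcript (chr1:149782689-149812373), which also overlaps a second gene model, and per length of all annotated exons H2BC18 ranked 3 and H2BC5 4 in the class.

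H2BC5 was at 170, 143 and 212 CPM against 223, 258 and 215 CPM; the groups did not overlap, but WT was widely spread and no change was called (0.40 ± 0.18, FDR = 0.12). It was called higher without WT replicate 3 (FDR = 0.0041) and with limma-voom (FDR = 0.0046). H2BC4 had the highest change of the class, from 156, 140 and 165 CPM to 199, 231 and 197 CPM (0.45 ± 0.07, FDR = 3.1e-04). H2BC6, the lowest, had 62 counts in WT and 49 in ΔTUT4/7 and was at 0.458, 0.731 and 1.11 CPM against 0.905, 0.412 and 0.613 CPM, with overlapping groups (-0.24 ± 0.38, FDR = 0.62). The GENCODE v44 exons of H2BC4 cover 2881 bases, against 460 for its canonical transcript, and a gene count does not tell its transcripts apart.

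In the 8 head-to-head pairs both genes were tested, and the H2A gene had the higher change in 4. In H2AC11 and H2BC11, whose shared promoter is printed above, the changes were 0.68 ± 0.08 and 0.27 ± 0.09, a difference of 0.41. H2AC17 and H2BC17 differed by 0.38, H2AC12 and H2BC12 by 0.31 and H2AC13 and H2BC13 by 0.21. H2AC6 with H2BC4, H2AC7 with H2BC7 and H2AC20 with H2BC21 differed by -0.05, -0.01 and -0.04, and H2AC15 with H2BC15 by -0.79. The differences had a median of 0.10 over the 8 pairs and were not tested.

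Histone H3, the core histone whose tail carries many of the best known chromatin marks, had a median change of 0.43: 6 of 9 genes rose, 1 fell and 2 were not called. Differences between the classes were not tested. In 8 of 9 the ΔTUT4/7 libraries lay wholly above the WT libraries, where 30.9% of all tested genes did. The 9 count H3C14 and H3C15 apart, though these had the same counts in every library. Over all tested genes 28.6% rose, and 51% of those with a mean count of at least 1000 did. Per length of the canonical transcript, H3C2 and H3C10 had the highest levels in WT, 496 ± 2.90 and 287 ± 15.3 CPM per kb. Per length of all annotated exons H3C2 was again the highest, but H3C10 was at 112 CPM per kb and ranked 6 of 9. H3C2 rose from 253, 252 and 255 CPM to 335, 367 and 319 CPM (0.43 ± 0.05, FDR = 1.5e-07). H3C10 rose from 145, 142 and 131 CPM to 178, 191 and 161 CPM (0.34 ± 0.06, FDR = 8.3e-05).

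H3C6 had the highest change among the H3 genes, at 6.92, 6.73 and 5.61 CPM in WT and 11.4, 11.03 and 10.5 CPM in ΔTUT4/7 (0.78 ± 0.12, FDR = 6.2e-06). Its GENCODE v44 exons cover 2679 bases, against 482 for its canonical transcript, and a gene count does not tell its transcripts apart. H3C12 (0.67 ± 0.11), H3C1 (0.63 ± 0.07) and H3C13 (0.54 ± 0.16) also rose; the call for H3C13 was lost under 5 alternatives, with library size alone, upper-quartile scaling and without WT replicate 1, WT replicate 3 or ΔTUT4/7 replicate 1 (FDR 0.069 to 0.11). H3C14 and H3C15, a mirrored pair on chromosome 1, had the same counts in every library and are 1 measurement. Each was at 124, 154 and 106 CPM in WT and 177, 181 and 159 CPM in ΔTUT4/7, without overlap and without a call (0.43 ± 0.16, FDR = 0.082). DESeq2, limma-voom, the replicate block and the fits without WT replicate 2 or WT replicate 3 called the pair higher. Counted once, 31 of 48 histone genes rose and 4 fell, where 28.6% and 29% of all tested genes did.

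H3C7 was the gene with the largest difference. The WT libraries held 24.2, 26.0 and 19.4 CPM, 1746 counts in all, and each ΔTUT4/7 library held 0 counts. Against a floor of 3 counts over the 3 ΔTUT4/7 libraries the level was at least 542-fold lower (FDR = 7.9e-14), counting error only. Genes of nearby position were read in the same libraries, with 7068 counts for H1-3 and 785 for H3C6 in ΔTUT4/7. H3C7 (chr6:26250142-26250635, minus strand) overlaps no other gene of the table and shares no 50-base word with another histone gene of this set. In WT it was 2.81% of the H3 counts. Without it the H3 sum had a ratio of 1.36.

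H4 pairs with H3 and is encoded by genes whose protein products are nearly all the same. In this class 7 of 12 genes rose, 1 fell and 4 were not called, with a median of 0.37. Over all tested genes 28.6% rose, and 51% of those with a mean count of at least 1000 did. Per length of the canonical transcript, H4C14 on chromosome 1 and H4C4 on chromosome 6 had the highest levels in WT, 1276 ± 88.9 and 599.9 ± 102.3 CPM per kb. Per length of all annotated exons H4C14 was at 269 CPM per kb and ranked 4, below H4C4, H4C3 and H4C5. H4C14 rose from 516, 466 and 534 CPM to 653, 726 and 616 CPM (0.40 ± 0.06, FDR = 1.3e-04). It shares 100% of its 50-base words with H4C15, so the level and rank of each rest partly on how reads were divided between them. Both are among the 7 that rose and are not fully separate measurements. The sum of both went from 556 ± 40.4 to 732 ± 61.5 CPM. H4C4 was at 244, 200 and 282 CPM against 249.8, 292 and 229 CPM, with overlap and no call (0.09 ± 0.17, FDR = 0.71).

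H4-16, the only member outside the large clusters (chr12:14767999-14771131, minus strand; H4C16 in newer annotations), rose most in its class. It was at 56.8, 56.0 and 56.3 CPM in WT and 93.8, 101.96 and 87.0 CPM in ΔTUT4/7, a ratio of 1.67 (0.74 ± 0.06, FDR = 3.6e-10). The WT libraries were nearly equal and all lay below ΔTUT4/7. Its row overlaps 2 small RNA gene models of the table. The GENCODE v44 exons of H4-16 cover 2454 bases, against 412 for its canonical transcript, and a gene count does not tell its transcripts apart. H4C1 (0.60 ± 0.12), H4C3 (0.43 ± 0.07), H4C2 (0.41 ± 0.07) and H4C15 (0.38 ± 0.09) also rose. H4C5 was called higher at 0.13 ± 0.05 (FDR = 0.038) although its groups overlapped, and the call was lost in 11 of the 14 alternatives (FDR 0.053 to 0.77).

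H4C12 (chr6:27831174-27831560, minus strand) was called lower. It was at 7.99, 13.8 and 25.6 CPM in WT and 2.09, 3.87 and 0.562 CPM in ΔTUT4/7, with 1300 against 153 counts (-2.89 ± 0.76, FDR = 0.032). All ΔTUT4/7 libraries lay below all WT libraries, but the WT values were widely spread, and the call was lost with the replicate block and when any single library but WT replicate 1 was left out (FDR 0.056 to 0.13). H4C12 shares 92.6% of its 50-base words with H4C11, the next H4 gene along the chromosome. H4C11 was at 54.1, 38.2 and 56.7 CPM in WT and 63.5, 70.1 and 58.7 CPM in ΔTUT4/7 (0.37 ± 0.18, FDR = 0.14). Summed over both genes the level was 62.1, 52.0 and 82.3 CPM against 65.6, 73.9 and 59.3 CPM, and the groups overlapped at a ratio of 1.01.

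**Figure D3:**
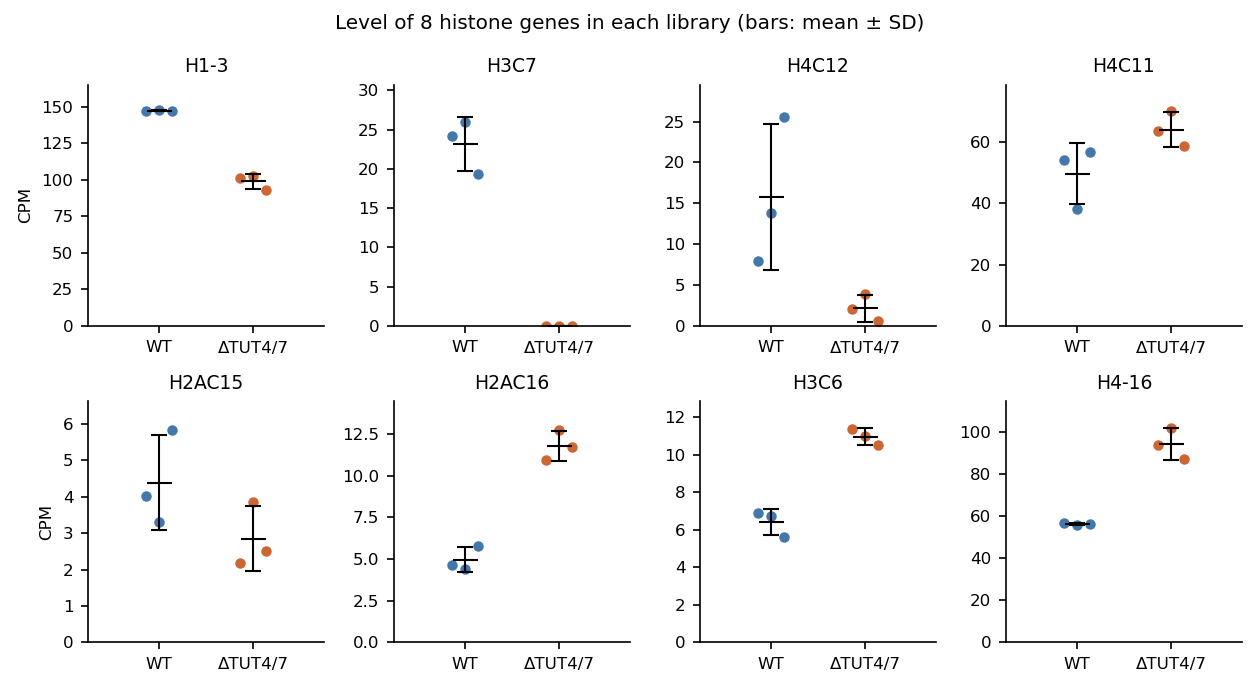
Level in CPM (linear axis from 0, 1 scale per gene) of 8 histone genes in each of the 3 WT and 3 ΔTUT4/7 libraries, with mean ± SD. H1-3 and H3C7 were lower and H2AC16, H3C6 and H4-16 higher in every ΔTUT4/7 library; H2AC15 overlapped, and the spread of H4C12 in WT is seen beside its near copy H4C11.

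Along the chromosomes the genes that fell were all on chromosome 6, where 23 of 37 rose and 4 fell. On chromosome 1, 7 of 11 rose, 0 fell and all 11 changes were above 0. Over all tested genes 28.6% rose and 29% fell. The 11 are not all separate measurements. H3C14 and H3C15 had the same counts, and H2AC18 with H2AC19 and H4C14 with H4C15 share nearly all of their sequence. Of the 4 that fell, H2AC15 overlapped between the groups. H4C12 summed with its near copy H4C11 had a ratio of 1.01. The difference between the chromosomes was not tested. The 7 genes of chromosome 1 that rose had changes between 0.35 and 0.54. The summed level had a ratio of 1.23 on chromosome 6 and 1.28 on chromosome 1, and chromosome 1 over chromosome 6 was 0.674 ± 0.0632 in WT and 0.698 ± 0.0113 in ΔTUT4/7, with overlap. Within classes, chromosome 1 over chromosome 6 was higher in every ΔTUT4/7 than in every WT library for H4 (0.601 ± 0.0205 to 0.675 ± 0.0108) and H2B (0.541 ± 0.00964 to 0.577 ± 0.0123), and overlapped for H2A and H3.

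H1-3 and H3C7 stood next to each other in the first stretch. The next gene, H2BC9, was under the count limit with 5, 11 and 10 counts in WT and 0, 1 and 2 counts in ΔTUT4/7, so that these 3 neighbours were all lower in every ΔTUT4/7 library. The gene before them, H3C6, rose (0.78 ± 0.12), and the gene after all 3, H4C8, was at 114, 118 and 117 CPM against 115, 140 and 117 CPM with no call (0.09 ± 0.06, FDR = 0.25). No gene besides H1-3, H3C7 and H2BC9 lay between H3C6 and H4C8 in the table. H1-3, H3C7 and H2BC9 were singled out after their values were seen.

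The other genes around the clusters had lower median changes. Within 1000000 bases of the first stretch, 26 other tested genes had a median change of -0.34, with 3 higher and 12 lower, where the 21 histone genes there had a median of 0.40. Around the second stretch 53 genes had a median of -0.18, with 7 higher and 20 lower, against 0.34 for 16 histone genes. Around the chromosome 1 cluster, 42 genes had -0.26, with 9 higher and 16 lower, against 0.39 for 11. The 15 genes around H4-16 had a median of 0.19, with 4 higher and 2 lower. Over all tested genes 28.6% rose and 29% fell. Neighbours with a mean count of 50 or more had medians of -0.30, -0.16 and -0.14 around the first stretch, second stretch and chromosome 1 cluster. Levels were not matched between histone genes and neighbours.

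**Figure D4:**
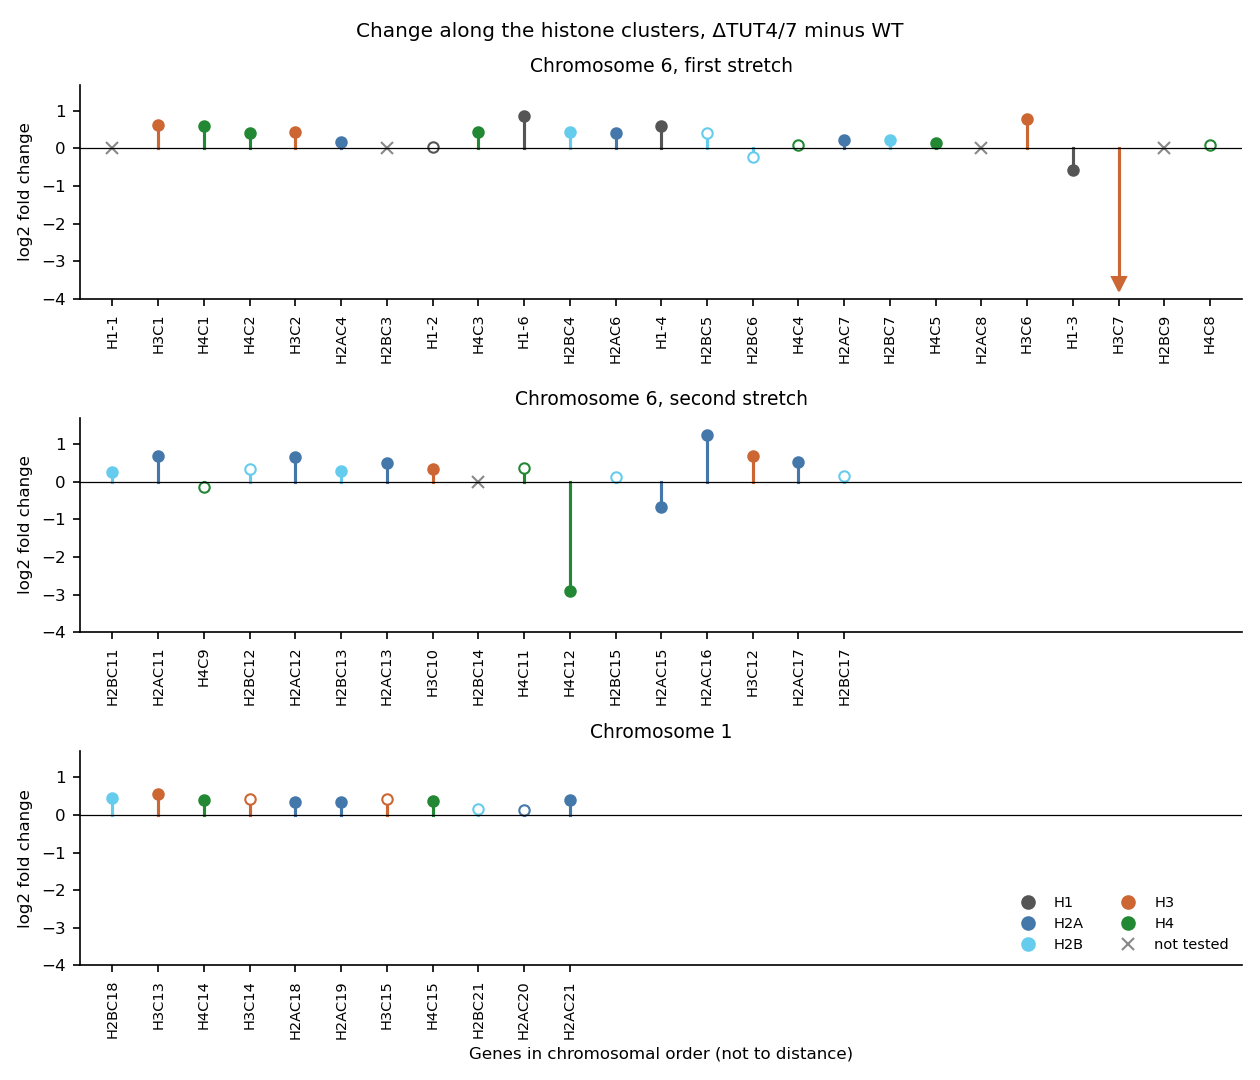
Change (ΔTUT4/7 minus WT, log2) of histone genes in chromosomal order along both stretches of chromosome 6 and the chromosome 1 cluster, coloured by class. Filled points passed the FDR, open points did not, crosses were under the count limit, and the downward triangle is H3C7 with 0 counts in ΔTUT4/7; the lowered genes lie among raised ones, and H1-3 and H3C7 are neighbours.

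Histone genes that are expressed outside S phase, most of them with poly(A) tails, moved in both directions: of 11 variant histone genes 4 rose, 2 fell and 5 were not called, with a median of 0.03 (3 higher and 3 lower with library size alone). Over all tested genes 28.6% rose and 29% fell, and 51% and 28.6% of those with a mean count of at least 1000 did. The same shares, which are those of the TMM scale, apply to the lists below, and no list was tested against them. H1-10, a linker histone variant, was at 33.2 ± 8.33 and 39.8 ± 2.15 CPM with no call (FDR = 0.35). H2AX, which marks DNA breaks when phosphorylated and whose mRNA can end at a stem-loop or in poly(A), rose from 64.4 ± 3.38 to 115 ± 10.4 CPM (0.84 ± 0.06, FDR = 8.1e-10). H2AZ1, the H2A variant of many gene starts (-0.63 ± 0.04), and H3-3A, one of the genes for H3.3 (-0.60 ± 0.07), fell, while H3-3B, which encodes the same protein as H3-3A, was at 376 ± 8.68 and 370 ± 19.5 CPM with no call (-0.03 ± 0.05, FDR = 0.65).

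Of 20 tested genes for histone transcription and 3′ end processing, 11 rose and 2 fell, with a median of 0.20 (9 and 7 with library size alone). Over all tested genes 28.6% rose and 29% fell, and 51% and 28.6% of those with a mean count of at least 1000 did. SLBP, the stem-loop binding protein, rose from 61.1, 68.7 and 73.5 to 88.7, 96.0 and 92.8 CPM (0.44 ± 0.06, FDR = 2.5e-06). LSM10, a subunit of the U7 particle that directs the cut, rose (0.88 ± 0.09), and its partner LSM11 was not called (-0.12 ± 0.06, FDR = 0.082). NPAT, the coactivator that gathers at the histone clusters, fell by 0.19 (± 0.05) and CASP8AP2, which is found with it, by 0.59 (± 0.04).

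Of 21 genes of histone mRNA decay, 11 rose and 5 fell, with a median of 0.37 (10 and 7 with library size alone). The list holds the targeted genes TUT4, which rose, and TUT7, which fell. They were its only genes changed 2-fold or more. Over all tested genes 28.6% rose and 29% fell, and 51% and 28.6% of those with a mean count of at least 1000 did. UPF1, the helicase recruited to the stem-loop for decay, rose from 85.0 ± 3.597 to 137 ± 4.64 CPM (0.69 ± 0.05). ERI1, the exonuclease that trims the stem-loop, fell by 0.41 (± 0.06), and DIS3L2, which degrades uridylated RNA, was at 32.3 ± 0.552 and 31.4 ± 0.875 CPM with no call (FDR = 0.61). Of 13 histone chaperones 6 rose and 3 fell, with a median of 0.04 (3 and 6 with library size alone).

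Among all tested genes 28.6% rose and 29% fell, and among those with a mean count of at least 1000, 51% and 28.6% did. Among 27 S-phase genes 15 rose and 7 fell, with a median of 0.20 (12 and 8 with library size alone). RFC5, a subunit of the clamp loader, was the only one past 2-fold, from 76.8 ± 1.78 to 166 ± 2.57 CPM (1.12 ± 0.05, FDR = 1.3e-14), and PCNA, the sliding clamp, was at 289 ± 11.1 and 303 ± 18.98 CPM with no call (0.07 ± 0.05, FDR = 0.25). The share of cells in S phase was not measured in these files, and its part in the histone results was not tested.

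**Figure D5:**
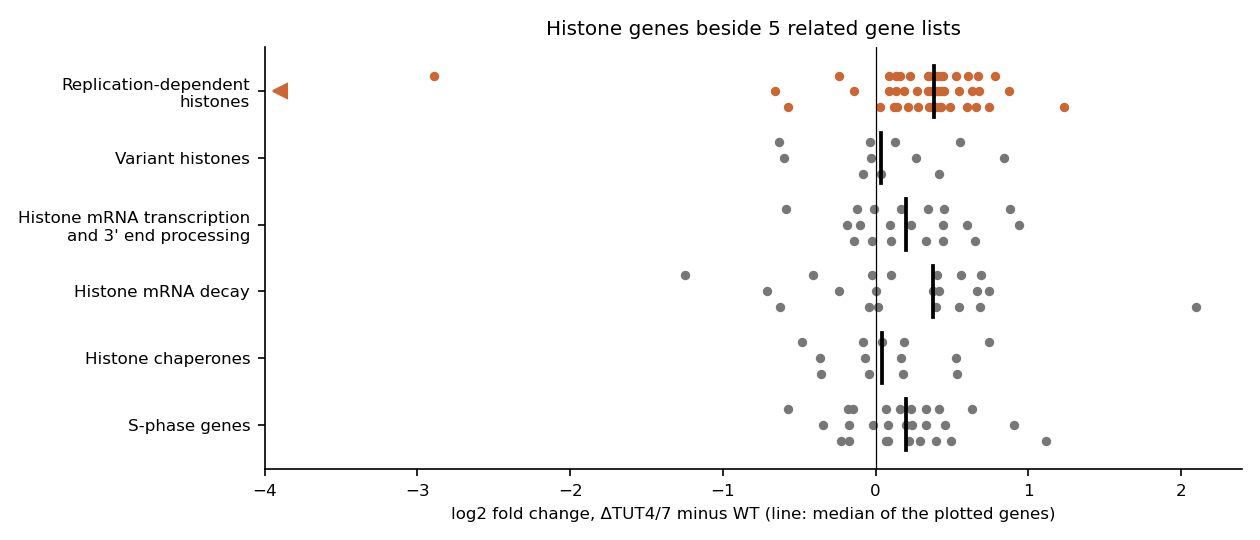
Change (ΔTUT4/7 minus WT, log2) of 48 replication-dependent histone genes and of the tested genes of 5 related lists; each point is a gene, the vertical offset only separates points, and the line is the median of the plotted genes. The triangle marks H3C7, which is left out of the plotted median (0.38). The histone genes cluster to the right of 0. The medians of the 5 lists run from 0.03 (variant histones) to 0.37 (histone mRNA decay).

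Some counts rest on how reads were shared among similar or overlapping genes. Of the 49 genes, 15 overlap another gene of the table, 14 have an annotated longer transcript, and 8 share more than 50% of their 50-base words with another histone gene. In each library 29 to 32 of the 49 values were not whole numbers. Of the 34 genes that overlap no other listed gene, 22 rose and 3 fell, where 28.6% and 29% of all tested genes did. Their median change was 0.35. The 14 genes with a longer annotated transcript had a median of 0.40 and the other 35 a median of 0.35.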

How the data were processed

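Total RNA was depleted of ribosomal RNA and sequenced in paired-end runs from 3 WT and 3 ΔTUT4/7 HEK 293T cultures. Per the labels and methods, the authors aligned reads to hg38 with STAR 2.7.3a and quantified Ensembl genes in Partek Flow 10.0.22. The deposited table holds estimated counts per gene, which need not be whole and which share reads between overlapping or similar genes; whether strand was used was not given in the sources used here. A second deposited table holds the authors' own comparison (p-values, FDR, ratios and fold changes) and was not used. A value was taken as whole when it lay within 1e-09 of a whole number.

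Estimated counts were rounded, genes with a largest count above 12 (the study's limit) were kept, and edgeR 4.0.16 (R 4.3.3; TMM factors, robust glmQLFit, then glmQLFTest with the group as sole term) was run with Benjamini-Hochberg adjustment over 23952 genes. Adjusted p-values in the text come from this test unless another tool is named. CPM values are means ± SD over 3 libraries. The script was tested on simulated data. Depth was 18757228 to 33148937 counts per library; floors for 0 counts use 3 counts and cover counting error only. Alternatives were RLE, upper-quartile and library-size scaling, DESeq2 1.42.0, limma-voom (limma 3.58.1), no count filter, a mean count of at least 50, a replicate block and leaving out each library. Leaving out H3C15, H1-3, H3C7 or overlapping genes was chosen after seeing the data.

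The genes and lists were chosen with earlier results of these data known. Any tested histone gene may be named; values in every library are given for the 2 highest per length in each class, the highest and lowest changes, genes changed 2-fold and H4-16. Stem-loops were read from hg38 at GENCODE v44 ends, and promoters are RefSeq's (GRCh38.p14). One gene of the variant histone list is not reported here and was left out of that list's counts.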

Additional observations from a re-analysis of the deposited data

How the results depend on the processing

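Over 14 alternatives, 22 of the 49 histone genes kept their direction and their side of the FDR in all. With library size alone and with upper-quartile scaling the median change of the histone genes was 0.26 and 0.28, and the ratio of the H1 sum was 0.977 and 0.987; without H1-3 it was 1.15. The number of histone genes that fell was 2 with the replicate block and 2 to 3 when single libraries were left out, so that no such fit kept all 4 calls (2 without WT replicate 3, ΔTUT4/7 replicate 1 or ΔTUT4/7 replicate 3). The number that fell 2-fold or more was 1 with the replicate block and 1 to 2 when single libraries were left out; WT replicate 1 was the only one whose loss left 2, and the gene lost was H4C12. With library size alone, 7 genes of the transcription and 3′ end processing list fell, and 3 chaperones rose and 6 fell.

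Signs turned only in genes with no call. H1-2 was at -0.0889 with library size alone, -0.0739 with upper-quartile scaling and -0.0385 with a mean count of at least 50; H4C4 at -0.0279 and -0.0135 and H4C8 at -0.0267 and -0.0117 with the first and second of these. Leaving out single libraries, H1-2 ranged from -0.0140 to 0.0557, H2BC6 from -0.620 to 0.140, H4C4 from -0.0351 to 0.215, H4C8 from -0.00530 to 0.138 and H4C9 from -0.659 to 0.170. The cause was not tested.

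Replicate numbers did not pair the samples: the deviations of same-numbered libraries correlated at 0.05, -0.01 and -0.02. With the block 29 histone genes rose, and the share over all genes under that fit is not given here. Counts of H1-6, H2BC6 and H4C9 were under 100 per group, so only large changes could be seen in them.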

Other observations

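Genes with histone names that the naming rule left out were read in the same libraries. H2AW and H2BU1, a pair on chromosome 1 away from the large cluster, were at 93.5 ± 15.98 and 83.3 ± 8.06 CPM in WT and at 111 ± 11.2 and 87.6 ± 7.83 CPM in ΔTUT4/7, with no call for either (edgeR's quasi-likelihood FDR = 0.25 and FDR = 0.47). H3-4, an H3 gene of the testis, had 48 counts in WT and 27 in ΔTUT4/7 (FDR = 0.21). The transcribed pseudogene H2BC20P in the chromosome 1 cluster went from 16.97 ± 0.754 to 13.4 ± 0.802 CPM (-0.34 ± 0.09, FDR = 0.0031), lower in 3 of 3 libraries, whereas none of the tested coding histone genes of that cluster was called lower. Its near neighbour H2BC19P was at 6.81 ± 0.566 and 5.75 ± 0.784 CPM with no call (FDR = 0.12). H2BC20P was picked out after its values were seen.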
